A study of Mus musculus with 178 samples.

Results

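The 10 genes described here encode cell surface receptors of natural killer (NK) cells: Klra4, Klra7, Klra8, Klra9, Klrb1c, Klrd1, Klre1, Klrk1, Klrg1 and Ncr1. They were taken by symbol from the deposited table of gene counts, which holds 55450 genes, and all 10 were found and passed the filter on low counts in each comparison. The libraries were bulk RNA-seq of whole blood from C57BL/6J mice of both sexes, aged 6 to 8 weeks, that carried 4MOSC1 cells, a carcinogen-derived mouse oral carcinoma line, in the tongue or buccal mucosa. All mice of both groups received the anti-PD-1 antibody RMP1-14, and no untreated group was sampled. Blood was drawn on Day 4, which is taken as before treatment (the study's descriptions of the first dose place it on different days), and on Days 9, 17 and 24. Responders, as classed by the study's tumor response criteria, gave 15 libraries on Days 4, 9 and 24 and 14 on Day 17, and non-responders gave 29 on Day 4 and 30 on each later day. The Day 17 library of 1 mouse, non-responder 24, is labelled as a responder on that day and was counted with the non-responders, as on its other days.

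NK cells are innate lymphocytes that kill tumor and infected cells without an antigen receptor of their own, and they weigh signals from activating against inhibitory surface receptors. Most of these receptors are lectin-like proteins encoded side by side in the NK gene complex. In the mouse the Ly49 family (Klra genes) reads MHC class I molecules: inhibitory members recruit the phosphatase SHP-1, and activating members signal through the adaptor DAP12. Blood as a whole was sequenced, so that fewer NK cells and less receptor RNA per NK cell cannot be told apart in these values.

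In the GENCODE M21 annotation of GRCm38, 9 of the 10 genes lie on chromosome 6 and Ncr1 lies on chromosome 7, at chr7:4337724-4345164 on the plus strand. Apart from Klrg1, which lies 6.50 Mb from the nearest of the others, the chromosome 6 members fall within 1.45 Mb, and the 4 Klra genes within 190 kb of each other. RefSeq sequence of GRCm38.p6 before the transcription start was given for 8 of the 10 genes, Klrd1 and Klrg1 being without an entry. The 250 bases before the start of 4 genes are shown for 2 reasons: Ncr1 and Klrk1, the pair of members with the highest correlation once 1 outlying library is left out, carry a letter match of the RUNX motif, and Klra4 and Klra8 are the activating Ly49 pair with similar upstream sequence. Capitals mark TGTGGT, the RUNX letters searched, or their reverse complement ACCACA.
Ncr1, chr7:4337465-4337714, plus strand: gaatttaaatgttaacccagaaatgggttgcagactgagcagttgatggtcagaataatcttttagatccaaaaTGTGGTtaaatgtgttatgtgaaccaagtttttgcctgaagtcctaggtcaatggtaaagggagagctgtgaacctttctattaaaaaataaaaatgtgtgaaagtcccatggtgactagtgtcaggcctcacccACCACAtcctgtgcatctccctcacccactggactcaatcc
Klrk1, chr6:129623865-129624114, minus strand: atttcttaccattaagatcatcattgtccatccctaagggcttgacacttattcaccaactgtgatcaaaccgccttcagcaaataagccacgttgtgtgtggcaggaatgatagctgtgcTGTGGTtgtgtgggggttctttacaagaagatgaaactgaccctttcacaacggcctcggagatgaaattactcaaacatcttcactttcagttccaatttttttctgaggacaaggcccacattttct
Klra4, chr6:130067272-130067521, minus strand: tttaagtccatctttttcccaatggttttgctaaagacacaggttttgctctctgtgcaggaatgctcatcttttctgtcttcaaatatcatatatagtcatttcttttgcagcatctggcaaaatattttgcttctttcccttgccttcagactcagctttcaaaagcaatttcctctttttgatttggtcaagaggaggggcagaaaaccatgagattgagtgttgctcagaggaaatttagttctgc
Klra8, chr6:130129899-130130148, minus strand: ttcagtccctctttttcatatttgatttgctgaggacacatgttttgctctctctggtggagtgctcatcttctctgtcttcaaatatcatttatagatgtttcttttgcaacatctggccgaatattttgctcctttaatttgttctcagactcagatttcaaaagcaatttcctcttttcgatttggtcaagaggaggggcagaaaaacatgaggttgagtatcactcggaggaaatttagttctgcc
On either strand TGTGGT was present in 4 of the 8 member windows (Klrb1c, Klre1, Klrk1 and Ncr1, the last with 2 matches), and in 14.2% of 27025 RefSeq windows of the same length. The T-box letters AGGTGT were in 0 of the 8 and in 12% of all windows. The ETS letters GGAAGT were in 1 of the 8 (Klrb1c) and in 20% of all. These letters do not overlap TGTGGT in the member windows, and a match is a description of the letters only. The windows of Klra7, Klrb1c and Klre1, placed before RefSeq starts, lie inside the GENCODE bounds of those genes. The Klra4 and Klra8 windows were identical at 84.5% of alignment columns, with gaps counted as columns. The other pairs of the 4 Klra windows had 44.3% to 47.8%. Gaps lower this share where windows are offset. The letters aggaggggcagaaa end the Klra9 window and lie further upstream in those of Klra4 and Klra8. The low shares of Klra9 therefore do not show that its upstream sequence is unlike theirs. Likeness within the family also reaches the transcripts: 33.1% of the 50-base windows of Klra8 transcripts and 31.5% of those of Klra9 occur in transcripts of other genes, as do 17% for Klrb1c, 12.3% for Klra7, 4.68% for Klra4 and 0.28% for Klre1. Klrd1, Klrk1, Klrg1 and Ncr1 shared none. The counting could therefore split reads between Klra genes or Klrb1c and their near copies, and the levels of those genes are less certain.

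Libraries held 26058958 to 82208665 estimated counts, of which haemoglobin genes took 68.7% to 88.0%, leaving 4536692 to 22177360 for all other genes. Each member had a median of 52 (Klrg1) to 311.5 (Klrk1) counts per library. One library stood apart, that of non-responder 29 on Day 24, with the lowest scaling factor of the trimmed mean of M values (TMM; 0.0848) and 0 counts of both Klra4 and Klra9. The Day 4 libraries of responders 8 and 2 had the next lowest factors (0.266 and 0.336, against a median of 1.05), and Day 4 is the baseline of every responder change. Without those 2 libraries the same counts of receptor genes passed in responders, 2, 1 and 8 on Days 9, 17 and 24, and 0 between the groups on Day 4. Ear tags had either 4 digits (11 responders and 7 non-responders) or 3 digits (4 and 23), called series here, so that series and response are partly confounded. Markers of NK cells fixed for a check of cell types (Ncr1, Klrb1c, Eomes, Klrd1, Gzma and Prf1) were each present in some library of every group, and so were those of T cells, B cells, monocytes, neutrophils, platelets, red cells and innate lymphoid cells.

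Compared per length, in the deposited TPM values (each gene's length-corrected share of all transcripts), Klrd1, the CD94 chain shared by the NKG2A, NKG2C and NKG2E receptors, had the highest level, 2.32 TPM (range 0.10 to 7.42) over the 178 libraries. Klrk1, which encodes the activating receptor NKG2D, followed with 1.68 TPM (range 0.04 to 7.80), Ncr1 (the activating receptor NKp46) with 1.34 TPM (range 0.06 to 5.78), and Klrb1c, which encodes NK1.1, with 1.02 TPM (range 0.05 to 5.33). The Ly49 genes and Klre1 lay lower and close together, between 0.82 TPM (range 0.05 to 3.90) for Klra8 and 0.58 TPM (range 0.03 to 2.39) for Klre1. Klrg1 was lowest at 0.35 TPM (range 0.01 to 1.03). The ranges of all neighbours in this order overlapped, and the order was the same after haemoglobin genes were left out of the TPM scaling. Haemoglobin fills most of each library, so these TPM values are small for every white cell gene, and all levels below are log2 CPM after TMM scaling (counts relative to the scaled library total), in which genes of other lengths are not compared.

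The clearest change was a fall from Day 4 to Day 24, in both response groups. In responders 8 of the 10 receptor genes were lower on Day 24 at an adjusted p no higher than 0.05 (quasi-likelihood test of edgeR, Benjamini-Hochberg, over 12560 genes), where 9.94% of all genes tested were lower. In non-responders the same 8 genes were lower, where 24.8% of 13009 genes tested were. The genes outside both sets were Klrd1 and Klrg1. The median log2 fold change of the 10 genes was -0.55 in responders and -0.40 in non-responders, beside medians over all genes of -0.0096 and 0.0093. With a fold change of at least 1.5 asked as well, 4 members were called in each group, Klra4, Klra8, Klrb1c and Ncr1, where 1.85% and 2.08% of genes were called lower. Of the 10 genes, a median of 9 were lower on Day 24 than on Day 4 in single responders (range 3 to 10 over 15 mice) and a median of 9 in single non-responders (range 3 to 10 over the 29 mice with both libraries).

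**Figure D1:**
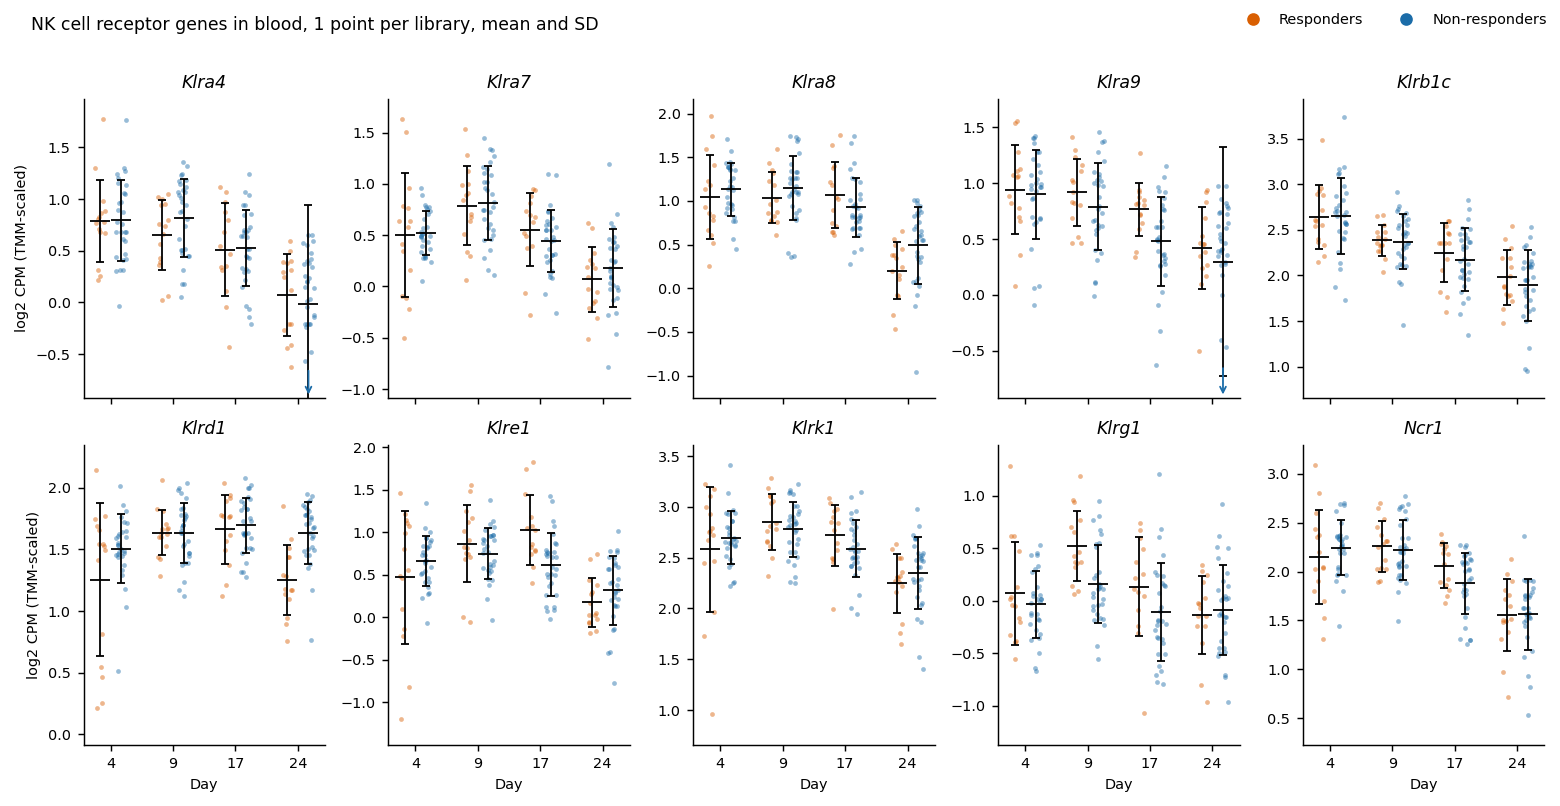
Log2 CPM after TMM scaling of each receptor gene (vertical axes, a scale for each gene) by day in responders and non-responders, 1 point per library, with the mean (dash) and SD (bars). Klrb1c, Ncr1 and the Klra genes were lowest on Day 24 in both groups; arrows mark the Day 24 library of non-responder 29, at -4.81 for Klra4 and Klra9, which lies below the axis and widens the SD bars of both genes there.

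Among the activating Ly49 receptors, Klra8 encodes Ly49H, known for recognising a protein of mouse cytomegalovirus. Its lowest, median and highest values in responders were 0.25, 0.94 and 1.97 log2 CPM on Day 4 and -0.47, 0.25 and 0.66 on Day 24. In non-responders they were 0.45, 1.16 and 1.71 on Day 4 and -0.96, 0.58 and 1.02 on Day 24. Both pairs of ranges overlapped, but Klra8 was lower on Day 24 in 14 of 15 responders and 27 of 29 non-responders. The log2 fold change was -0.92 (SE 0.14) in responders, to 53.0% of the Day 4 level (adjusted p = 1.7e-05, quasi-likelihood test of edgeR, Benjamini-Hochberg). It was -0.63 (SE 0.095) in non-responders, to 64.7% (adjusted p = 4.4e-08, same test). Klra4, which encodes Ly49D, another receptor that signals through DAP12, went from 0.21, 0.78 and 1.77 on Day 4 to -0.62, 0.25 and 0.59 on Day 24 in responders. In non-responders it went from -0.033, 0.76 and 1.76 to -4.81, 0.17 and 0.65, the lowest value being the library without a count, and -0.57 without it. It was lower in 13 of 15 responders and 26 of 29 non-responders, at -0.75 (SE 0.14) and -0.68 (SE 0.10) on the log2 scale (adjusted p = 3.6e-04 and 2.6e-08, edgeR).

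The inhibitory Ly49 receptors were lower on Day 24 as well. Klra7, which encodes Ly49G, had lowest, median and highest values of -0.50, 0.58 and 1.63 log2 CPM on Day 4 and -0.51, 0.091 and 0.62 on Day 24 in responders. In non-responders the values were 0.056, 0.50 and 0.96 and then -0.79, 0.17 and 1.19. The groups overlapped widely, and the change was -0.56 (SE 0.15) in responders (lower in 10 of 15) and -0.32 (SE 0.087) in non-responders (lower in 24 of 29), with adjusted p = 0.00953 and 0.00143 in edgeR. Klra9, which encodes Ly49I, went from 0.080, 1.06 and 1.55 to -0.50, 0.45 and 0.94 in responders and from -0.094, 0.96 and 1.42 to -4.81, 0.48 and 0.98 in non-responders. It was lower in 13 of 15 and 26 of 29 mice, at -0.54 (SE 0.12) and -0.46 (SE 0.10, adjusted p = 0.00158 and 7.9e-05, edgeR). Whether inhibitory and activating Ly49 genes differed in their change was not tested, and the reads they share with near copies apply to all 4.

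Klrb1c, the gene of the NK1.1 antigen by which C57BL/6 NK cells are commonly stained, gave lowest, median and highest values of 2.14, 2.60 and 3.48 log2 CPM on Day 4 and 1.48, 1.88 and 2.54 on Day 24 in responders. In non-responders these were 1.73, 2.67 and 3.74 and 0.95, 1.95 and 2.53. The ranges overlapped, and Klrb1c was lower on Day 24 in 14 of 15 responders and 29 of 29 non-responders. The change was -0.69 (SE 0.10) in responders, to 62.0% of Day 4, and -0.77 (SE 0.092) in non-responders, to 58.8% (adjusted p = 1.9e-05 and 4.2e-11, quasi-likelihood test of edgeR, Benjamini-Hochberg). Its transcripts overlap Gm44511 on the same strand, so part of its reads cannot be told apart from that gene's. Ncr1, the only member outside the lectin-like family, shares no 50-base window with another gene. Its values were 1.31, 2.05 and 3.10 and then 0.71, 1.52 and 2.13 in responders, and 1.44, 2.28 and 2.70 and then 0.53, 1.60 and 2.36 in non-responders. Ncr1 was lower in 14 of 15 responders and 28 of 29 non-responders, at -0.64 (SE 0.12) and -0.67 (SE 0.082), to 64.1% and 62.7% of the Day 4 level (adjusted p = 3.8e-04 and 5.5e-11, edgeR).

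Klrk1 encodes NKG2D, which binds stress-induced ligands on tumor cells and signals through the adaptor DAP10. Its lowest, median and highest values were 0.96, 2.75 and 3.23 log2 CPM on Day 4 and 1.65, 2.30 and 2.64 on Day 24 in responders, and 2.22, 2.66 and 3.41 and 1.41, 2.44 and 2.98 in non-responders. The ranges overlapped, and the change was -0.42 (SE 0.13) in responders (lower in 11 of 15) and -0.33 (SE 0.074) in non-responders (lower in 23 of 29), with adjusted p = 0.0174 and 1.4e-04 in edgeR. Klre1, whose protein pairs with those of Klri1 and Klri2, went from -1.20, 0.56 and 1.46 to -0.18, 0.049 and 0.75 in responders and from -0.074, 0.67 and 1.34 to -0.77, 0.35 and 1.01 in non-responders. Its change was -0.52 (SE 0.17) and -0.33 (SE 0.089, adjusted p = 0.0304 and 0.00113, edgeR). Leaving out responder 3 took both Klrk1 (adjusted p = 0.0561) and Klre1 out of the responders' calls, which left 6 of the 8, and leaving out any of responders 4, 7, 11 or 14 took out Klre1 (highest adjusted p = 0.0786 over single mice left out), as did a filter of 1 count in any library (adjusted p = 0.0578).

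Klrd1 and Klrg1 did not pass the test on Day 24. Klrd1 had lowest, median and highest values of 0.21, 1.53 and 2.15 log2 CPM on Day 4 and 0.76, 1.18 and 1.85 on Day 24 in responders, and 0.51, 1.53 and 2.02 and 0.77, 1.70 and 1.96 in non-responders. The responders of Day 4 were spread widely for this gene, with an SD of 0.62 against 0.28 in non-responders. Its change was -0.14 (SE 0.13) in responders (95% interval -0.39 to 0.10, adjusted p = 0.445, edgeR, and -0.23 without the Day 4 libraries of responders 2 and 8) and 0.13 (SE 0.061) in non-responders (0.0098 to 0.25, adjusted p = 0.0694), higher in 19 of 29 mice. The non-responders' Klrd1 passed as higher with the mouse as a replicate block (0.13, adjusted p = 0.0430), in DESeq2 (0.14, adjusted p = 0.0463), with haemoglobin genes removed before scaling (0.14, adjusted p = 0.0482) and without any of 8 single non-responders (lowest adjusted p = 0.0315). Klrg1, an inhibitory receptor for cadherins that marks mature NK cells and effector T cells, went from -0.55, -0.037 and 1.28 to -0.96, -0.069 and 0.34 in responders and from -0.67, -0.013 and 0.53 to -0.97, -0.13 and 0.93 in non-responders. Its change was -0.25 (SE 0.16, interval -0.56 to 0.052) and -0.0013 (SE 0.11, interval -0.22 to 0.22), so that falls as large as that of Ncr1 lay outside both intervals.

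**Figure D2:**
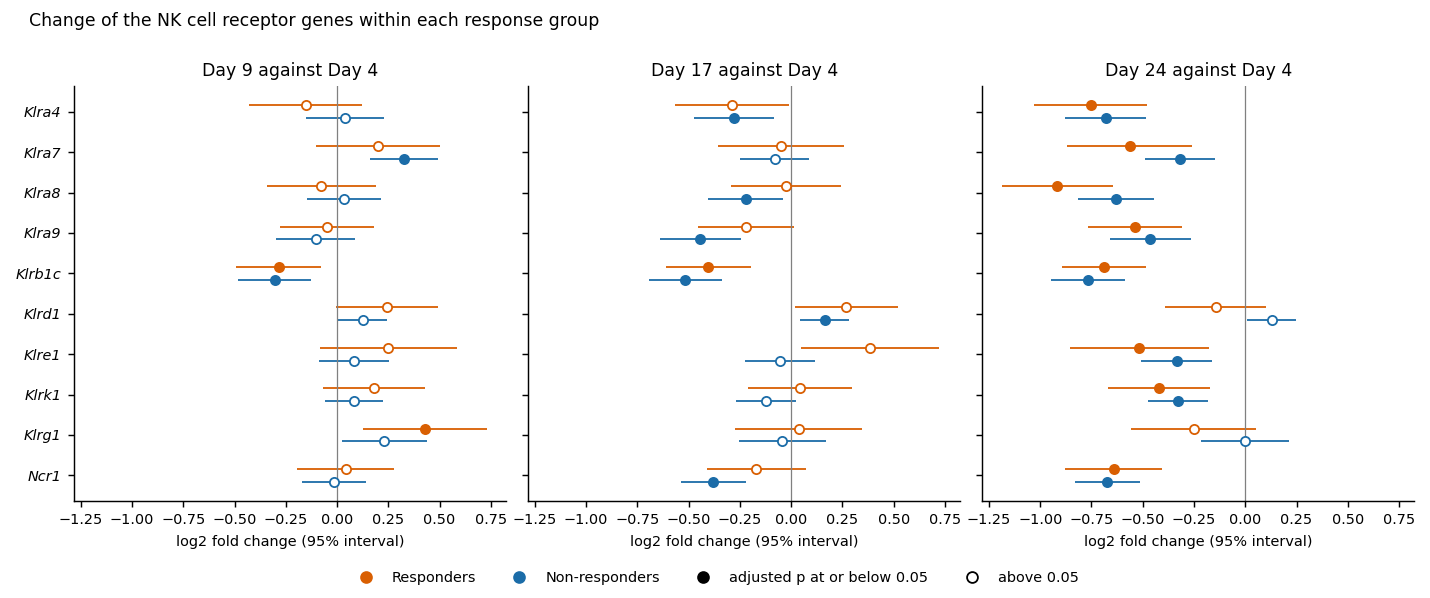
Log2 fold change of each gene from Day 4 to Days 9, 17 and 24 (horizontal axis) with its 95% interval, in responders and non-responders; filled points have an adjusted p of at most 0.05 in edgeR's quasi-likelihood test. On Day 24 all filled points lie left of 0, between -0.92 and -0.32, and Klrd1 and Klrg1 are open in both groups.

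The earlier days did not show this fall as a whole. On Day 9, 2 of the 10 genes passed in responders, where 27.7% of genes tested passed in either direction, and 2 in non-responders, where 50.8% did. Klrb1c was lower in both groups, at -0.29 (SE 0.10) in responders (13 of 15 mice) and -0.31 (SE 0.091) in non-responders (22 of 29), with adjusted p = 0.0345 and 0.00296 in edgeR. Klrg1 was higher in responders, by 0.43 (SE 0.15, adjusted p = 0.0314, 13 of 15 mice), and had a change of 0.23 (SE 0.11) in non-responders (adjusted p = 0.0605). Klra7 was higher in non-responders, by 0.32 (SE 0.084, 21 of 29 mice, adjusted p = 6.6e-04, edgeR), with 0.20 (SE 0.15) in responders (adjusted p = 0.350). The other members lay between -0.15 and 0.25 in both groups. The median of the 10 was 0.11 in responders and 0.059 in non-responders. Without the Day 4 libraries of responders 2 and 8 the value of each of the 10 in responders was lower, and so was their median. Klrd1 went from 0.24 to 0.16 and Klre1 from 0.25 to 0.17, without passing in either fit. With the mouse as a replicate block 1 member remained in responders, Klrb1c, and 4 passed in non-responders, Klrd1 and Klrg1 being added as higher, as they were in DESeq2. Both responder calls of Day 9 lay close to the threshold. Leaving out any of responders 2, 3, 7, 13 or 14 lost Klrb1c (highest adjusted p = 0.0989) and leaving out any of responders 4, 6, 9, 10, 11, 12 or 13 lost Klrg1 (highest adjusted p = 0.101), so that both held only without responder 1, 5, 8 or 15. A filter of 1 count in any library lost both as well (adjusted p = 0.0501 and 0.0539).

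On Day 17, Klrb1c alone passed in responders, at -0.40 (SE 0.11, adjusted p = 0.00388, edgeR; lower in 12 of 14 mice), where 25.6% of genes passed. With the replicate block Klre1 passed there too, as higher, at 0.40 (adjusted p = 0.0457), and it also passed without responder 7. Without responder 14, 3 members passed in responders, with Klrd1 and Klre1 higher. The Day 4 libraries of responders 2 and 8 left out took the responders' Klre1 from 0.38 to 0.29 (adjusted p = 0.0915 and 0.222, edgeR). Klrd1 went from 0.27 to 0.18 (adjusted p = 0.115 and 0.312, edgeR). In non-responders 6 members passed, where 46.1% of genes did, and 5 of the 6 were lower, where 3149 of 13009 genes were. The median of the 10 members was -0.17 in non-responders and -0.038 in responders, beside 0.0013 and 0.0050 over all genes. Klrb1c (-0.52, SE 0.092), Klra9 (-0.44, SE 0.10), Ncr1 (-0.38, SE 0.081), Klra4 (-0.28, SE 0.099) and Klra8 (-0.22, SE 0.093) were lower, with adjusted p between 1.4e-06 and 0.0438 in edgeR. Klrd1 was higher, by 0.16 (SE 0.061, adjusted p = 0.0202; 21 of 29 mice), and lost this call with the filter of 1 count in any library (0.14, adjusted p = 0.104). Ncr1 was lower on Day 17 in 27 of 29 non-responders and 8 of 14 responders. Klra8 had the highest adjusted p of these and was lost with the replicate block (adjusted p = 0.0521), with haemoglobin genes removed before scaling (adjusted p = 0.0594) and without any of 20 single non-responders.

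Responders and non-responders were then compared within each day, which asks whether receptor levels separate the outcomes. Asking for an adjusted p no higher than 0.05 together with a 1.5-fold change, 0 of the 10 genes were called on any of the 4 days by edgeR's quasi-likelihood test, and 0 by DESeq2, where edgeR called 4.21% of genes on Day 4, 3.65% on Day 9, 0.264% on Day 17 and 0.297% on Day 24. At an unadjusted p under 0.05 the members numbered 0, 1, 2 and 2 on Days 4, 9, 17 and 24, where 20.7%, 25.1%, 20.6% and 24.3% of all genes tested had such a p. On Day 4, before treatment, the log2 differences (responders less non-responders) ran from -0.12 (SE 0.12) for Klrd1 to 0.18 (SE 0.13) for Klrg1, with a median of -0.0081. The Day 4 intervals of Ncr1 (-0.24 to 0.19) and Klrk1 (-0.25 to 0.20) bound the difference between the groups in either direction. By adjusted p alone, 3 of 5 monocyte, 3 of 5 neutrophil and 2 of 5 red cell markers were higher in responders on Day 4. Their medians were 0.39, 0.43 and 0.98, and 808 of 12620 genes were higher. On Day 9, 5 of 5 red cell, 2 of 4 platelet and 1 of 4 innate lymphoid cell markers were higher. Their medians were 0.81, 0.33 and 0.22, and 1189 of 12608 genes were higher. No T or B cell marker passed on either day. The part of these cells was not tested.

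By adjusted p alone, 1 member passed on Day 9 and 1 on Day 24, where 13.4% and 8.55% of genes passed. Klrg1 on Day 9 had lowest, median and highest values of 0.063, 0.43 and 1.19 log2 CPM in responders and -0.55, 0.11 and 0.95 in non-responders, with overlapping ranges. It was higher in responders by 0.36 (SE 0.12, adjusted p = 0.0330, quasi-likelihood test of edgeR, Benjamini-Hochberg), and leaving out any of responders 6, 7, 11, 12 or 13 lost this call (highest adjusted p = 0.0846), as did a filter of 1 count in any library (0.35, adjusted p = 0.0650). With the ear tag series as a covariate the difference was 0.29 (adjusted p = 0.258), and it was 0.43 among mice with 4-digit tags and 0.11 among those with 3-digit tags. On TPM the difference of Klrg1 was -0.18 (adjusted p = 0.157, Wilcoxon test), or 0.42 relative to the median gene. Klrd1 on Day 24 had values of 0.76, 1.18 and 1.85 in responders and 0.77, 1.70 and 1.96 in non-responders. It was lower in responders, at -0.40 (SE 0.075, adjusted p = 0.00131, edgeR), with each mouse left out and with the series as a covariate (-0.39, adjusted p = 0.0252), but not on TPM (-0.32, adjusted p = 0.781, Wilcoxon test). Within the 4-digit series it was -0.39 (adjusted p = 0.294) and within the 3-digit series -0.38 (adjusted p = 0.192), both of the same size in fewer mice. Klre1 on Day 17, at 0.42 (SE 0.12), missed the threshold (adjusted p = 0.0573; 0.0333 in DESeq2), and passed without any of 11 single mice (lowest adjusted p = 0.0328). With the series as a covariate it was 0.27 (adjusted p = 0.489), and within the 4-digit and 3-digit series it was 0.37 and 0.13. On TPM the median of Klre1 was 0.59 in both groups (adjusted p = 0.480, Wilcoxon test), a difference of 0.23 relative to the median gene. No member passed within either series on any day. On Day 24 the median of the members' differences was 0.17 within the 4-digit and -0.40 within the 3-digit series, against -0.11 pooled.

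The scale of the values matters for Days 4 and 9. On TPM, compared by a two-sided Wilcoxon rank-sum test with the difference of medians on the log2(TPM + 0.1) scale, 7 members were lower in responders on Day 4 and 9 on Day 9 by adjusted p, and 1 and 6 with a fold change of at least 1.5. On that scale 84.0% and 89.1% of all genes were lower, and the median gene differed by -0.60 on both days. The members' differences were -0.73 to -0.16 on Day 4 and -0.80 to -0.18 on Day 9. Relative to the median gene they ran from -0.13 to 0.44 and from -0.20 to 0.42. On Days 17 and 24 the median gene differed by -0.23 and -0.046, and 0 members passed by this test. Haemoglobin took a median of 83.8% of the counts in responders and 79.4% in non-responders on Day 4, 83.1% and 78.5% on Day 9, 83.2% and 81.8% on Day 17, and 80.9% and 81.4% on Day 24. Its part in the TPM differences was not tested.

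**Figure D3:**
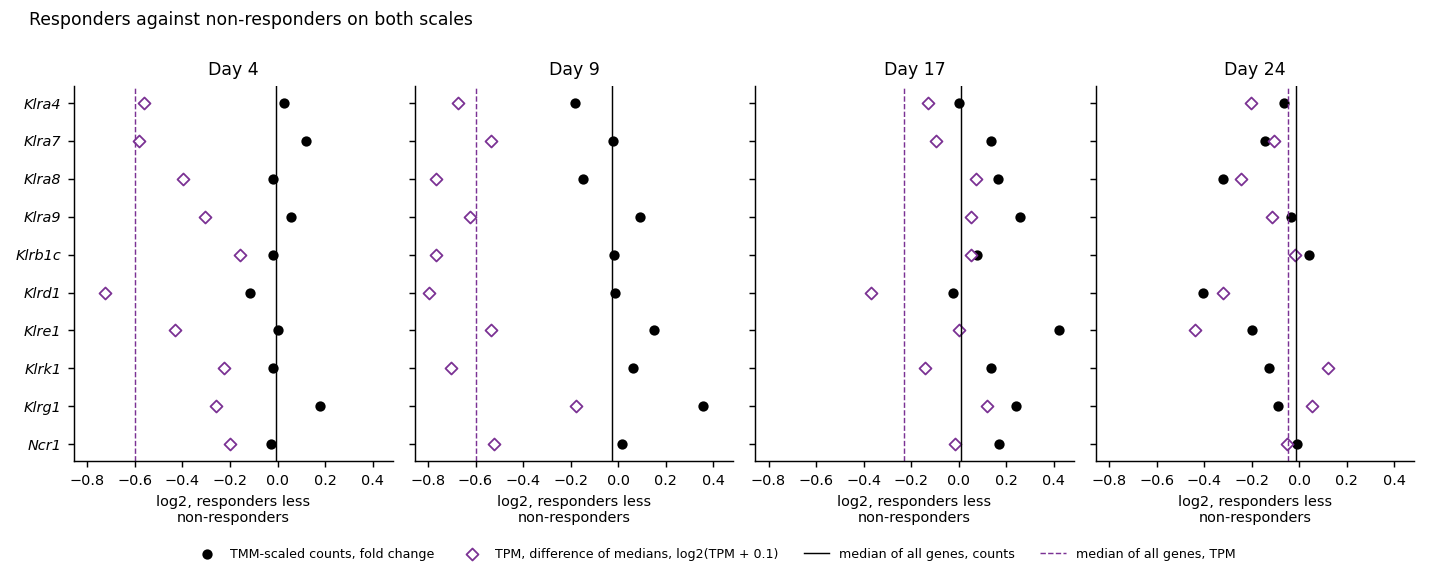
Difference between responders and non-responders (log2) in each receptor gene by day, as the fold change of TMM-scaled counts (filled) and as the difference of medians in log2(TPM + 0.1) (open), with the median of all genes on each scale as a line. On Days 4 and 9 the TPM values of both the members and the median gene are shifted to the left, to a median gene of -0.60, and the TMM-scaled values lie around 0.

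The change from Day 4 was also set against response in 1 fit over all libraries (the interaction of response and day). None of the 10 genes passed the test of a difference in change between responders and non-responders by edgeR on Day 9 (0% of 13688 genes passed), Day 17 (0.351%) or Day 24 (3.76%). At an unadjusted p under 0.05 there were 0, 1 and 1 members, Klre1 on Day 17 and Klrd1 on Day 24, where 5.25%, 10.2% and 18.4% of all genes had such a p, and DESeq2 passed 0 members on each day. In this fit the largest differences of change were 0.42 (SE 0.18) for Klre1 on Day 17 (interval 0.076 to 0.76, adjusted p = 0.400), -0.30 (SE 0.17) for Klra8 on Day 24 (interval -0.63 to 0.028, adjusted p = 0.341) and -0.29 (SE 0.12) for Klrd1 on Day 24 (interval -0.53 to -0.048, adjusted p = 0.166). With the ear tag series as a covariate the largest was that of Klrg1 on Day 24, -0.46 (adjusted p = 0.202, against -0.26 without the covariate), and that of Klre1 on Day 17 was 0.32 (adjusted p = 0.363). For Ncr1 on Day 24 it was, without the covariate, 0.017 (SE 0.14), with an interval of -0.27 to 0.30. Without the Day 4 libraries of responders 2 and 8 the largest was that of Klrd1 on Day 24, -0.37 (adjusted p = 0.10), and that of Klre1 on Day 17 was 0.33 (adjusted p = 0.833). For Klrd1 on Day 24 the difference in level thus passed by adjusted p alone, without the 1.5-fold change, and the difference of its changes did not pass.

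The other lectin-like receptor genes of the complex had 11 of 17 tested, and 5 of them were lower on Day 24 in responders (median of the 11, -0.53) and 7 lower and 1 higher in non-responders (median -0.37), beside the 9.94% and 24.8% of all genes that were lower. Klri2, whose protein pairs with that of Klre1, changed by -0.59 (SE 0.12) in responders and -0.59 (SE 0.088) in non-responders (adjusted p = 8.1e-04 and 2.9e-08, edgeR). The inhibitory Ly49 genes Klra3 (-0.88, SE 0.20) and Klra1 (-0.59, SE 0.16) were lower in responders, and the NKR-P1 genes Klrb1a (-0.85, SE 0.14) and Klrb1b (-0.61, SE 0.12) in non-responders. Each pair was named for its small p in that group, and its values in the other group are not given here. The naming is not a contrast between the groups. In responders the changes of all 11 genes were negative, between -0.88 and -0.25. On Day 9, 3 of these 11 genes were higher in responders and 5 in non-responders, where 13.5% and 23.3% of all genes were higher. Klra2 was higher by 1.01 (SE 0.16) in responders and 1.22 (SE 0.092) in non-responders, and Klra17 by 0.62 (SE 0.22) and 0.94 (SE 0.14). Klra2 and Klra17 encode Ly49B and Ly49Q, which are known from myeloid and plasmacytoid cells rather than NK cells. The NKG2C gene Klrc2, the partner of CD94, was also higher on Day 9, by 0.47 (SE 0.16) and 0.38 (SE 0.098). The responders' calls of Klra17 and Klrc2 on Day 9 were lost without the Day 4 libraries of responders 2 and 8 (0.55 and 0.37, adjusted p = 0.0699 and 0.0667).

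Of the adaptor and signalling genes 17 of 18 were tested, and 8 were lower on Day 24 in responders (median -0.20) and 13 in non-responders (median -0.19), with 0 higher, against the same shares of all genes. Fcer1g, the Fc receptor gamma chain with which NK1.1 and NKp46 signal, changed by -0.72 (SE 0.13) in responders and -0.42 (SE 0.093) in non-responders. Hcst, which encodes DAP10, changed by -0.65 (SE 0.14) and -0.34 (SE 0.085), and Lat, which T cells also use, by -0.38 (SE 0.079) and -0.22 (SE 0.051). Ptpn6, the gene of the phosphatase SHP-1 that inhibitory Ly49 receptors recruit, was lower, at -0.28 (SE 0.033) in non-responders and -0.21 (SE 0.048) in responders. Tyrobp, the gene of DAP12, was chosen for its role after its values were seen: it was lower in responders, -0.40 (SE 0.11, adjusted p = 0.00877, edgeR), and had -0.0047 (SE 0.083) in non-responders (adjusted p = 0.974). On Day 4 Tyrobp was already higher in responders than in non-responders, by 0.40 (SE 0.10, adjusted p = 0.00751, edgeR). The difference of changes on Day 24 passed for 0 of the 17 genes, where 3.76% of all genes passed. Monocytes and neutrophils express Tyrobp and Fcer1g as well.

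Of 16 effector and transcription factor genes of NK cells, 9 were lower on Day 24 in responders (median -0.40), where 9.94% of all genes tested were, and the other 7 did not pass. In non-responders 9 were lower and 1 higher (median -0.34, range -0.73 to 1.61), where 24.8% of all genes were lower and 23.8% higher. The granzyme gene Gzma changed by -0.84 (SE 0.12) in responders and -0.69 (SE 0.093) in non-responders, the perforin gene Prf1 by -0.70 (SE 0.10) and -0.73 (SE 0.084), and Nkg7, a granule protein, by -0.62 (SE 0.081) and -0.52 (SE 0.077), each with an adjusted p of at most 8.7e-06 in edgeR. Eomes and Tbx21, the T-box factors of NK cell maturation, named for their role after their values were seen, changed by -0.38 (SE 0.091) and -0.47 (SE 0.13) in responders and -0.42 (SE 0.073) and -0.54 (SE 0.088) in non-responders, and all 4 changes passed. Of 19 other surface receptors 3 were lower in responders (median -0.18), and 9 lower and 3 higher in non-responders (median -0.17), the first of these shares, 3 of 19, being near that of all genes. Among them the interleukin receptor genes Il2rb (-0.38, SE 0.075 and -0.46, SE 0.063) and Il12rb2 (-0.52, SE 0.16 and -0.74, SE 0.088) were lower in both groups. The ligand genes, 9 of 14 tested, had medians near 0 (-0.0092 and 0.066): 2 were lower in responders, B2m (-0.67, SE 0.13) and H2-D1 (-0.23, SE 0.060), and 3 were lower and 3 higher in non-responders, where 24.8% and 23.8% of all genes were.

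Markers of other blood cells moved over the same days. On Day 24, 5 of 8 T cell markers were lower in responders (median log2 fold change -0.26) and 7 of 8 in non-responders (-0.28), where 9.94% and 24.8% of all genes were. The summed level of the 8 had a median of 104 CPM (88.2 to 149) on Day 4 and 91.1 (68.7 to 116) on Day 24 in responders, and of 102 (86.8 to 152) and 90.7 (67.8 to 108) in non-responders. For the 6 NK markers, which include 3 of the receptor genes, the summed level had a median of 44.6 CPM (34.1 to 83.9) on Day 4 and 28.2 (21.8 to 36.9) on Day 24 in responders, and of 45.2 (25.1 to 83.6) and 29.6 (11.4 to 43.9) in non-responders. In responders 1 of 4 B cell markers, 2 of 5 monocyte markers and 2 of 4 platelet markers were lower, and 0 of 5 neutrophil and 0 of 4 innate lymphoid cell markers passed. In non-responders 3 of 4 B cell and 4 of 4 platelet markers were lower, 1 of 5 monocyte markers was higher and 1 lower, and 4 of 5 neutrophil and 2 of 4 innate lymphoid cell markers were higher, where 23.8% of all genes were. Red cell genes were higher in 4 of 5 in non-responders (median 0.96) and in 0 of 5 in responders. Their summed level, TMM-scaled, had a median of 651100 CPM (282700 to 1776000) on Day 4 in non-responders. On Day 24 it was 794500 there, with a range of 489300 to 10600000. In responders it was 1082000 (457200 to 3354000) and then 798600 (595900 to 2387000). How far single libraries set the 0.96 was not tested. The part of these blood cells in the fall of the receptor genes was not tested. On Day 9 all 8 T cell markers were lower in both groups (medians -0.53 and -0.58), as were 3 of 4 B cell and 1 of 4 platelet markers in responders and 4 of 4 of each in non-responders, and 1 of the 10 receptor genes in each group, where 14.2% and 27.5% of all genes were lower. Higher on that day were 3 of 5 monocyte and 2 of 5 neutrophil markers in responders and 5 of 5 and 4 of 5 in non-responders, where 13.5% and 23.3% of all genes were. On Day 17, 5 of 8 T cell markers were lower in responders (median -0.23) and 8 of 8 in non-responders (-0.38), as were 3 of 4 B cell markers in each group. Of the 5 neutrophil markers 4 were higher and 1 lower in each group, and of the 5 monocyte markers 1 was lower in responders and 3 were higher in non-responders, where 25.6% and 46.1% of all genes passed in either direction. The part of these cells in the Day 17 values of the receptor genes was not tested either.

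Within groups, the receptor genes varied together from library to library. Each library's log2 CPM was taken less the mean of its day and response group, and over the 178 libraries, which include up to 4 of the same mouse, each member was correlated with the mean of the other 9. Pearson's r was highest for Klrk1 (0.84) and Ncr1 (0.83), and lowest for Klrd1 and Klrg1 (both 0.61). Klrk1 and Ncr1, which lie on different chromosomes, had r = 0.78 with each other, also when the Day 24 library of non-responder 29 was left out. The highest pair, Klra4 and Klra9 at r = 0.81, rested on that library in part and was 0.61 without it. The lowest pairs were Klra7 and Klra9 (0.35) and Klrd1 and Klrg1 (0.36). Without that library they were 0.47 and 0.33, and Klrd1 with Klrg1 was then the lowest pair. T cell markers had r between -0.15 (Cd4) and 0.13 (Cd28) with the members' mean, or -0.20 (Cd4) to 0.063 (Cd8a) without that library, and the haemoglobin genes and Alas2 between -0.33 and -0.29, or -0.21 to -0.17 without that library. The innate lymphoid cell markers Il7r, Gata3, Rora and Itga1 had r of 0.17, 0.25, 0.26 and -0.041. Without that library these were 0.13, 0.22, 0.25 and -0.023.

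Of 13688 genes, the 8 non-members whose pattern over the libraries was most like the members' mean were Klri2 (r = 0.85), Gzma (0.80), Adamts14 (0.74), Il2rb (0.73), Gzmb (0.72), AW112010 (0.70), Klrc1 (0.69) and Klrc2 (0.69). Of these, 6 are in the lists of NK genes used here, and the other two are Adamts14, which encodes a secreted metalloproteinase, and AW112010. On Day 24 Adamts14 changed by -0.48 (SE 0.13) in responders and -0.48 (SE 0.080) in non-responders (adjusted p = 0.0108 and 5.4e-07, edgeR), and Gzmb by -0.52 (SE 0.14) and -0.39 (SE 0.093). The NKG2A gene Klrc1 and Klrc2, both partners of CD94, had no change past the threshold on Day 24, as Klrd1 did not: Klrc1 -0.26 (SE 0.14) and -0.12 (SE 0.092), Klrc2 -0.36 (SE 0.16) and -0.11 (SE 0.10). Without the Day 4 libraries of responders 2 and 8, Klrc2 passed as lower in responders (-0.46, adjusted p = 0.0496). Without the Day 24 library of non-responder 29, 7 of the 8 genes were again among the 8 most alike.

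**Figure D4:**
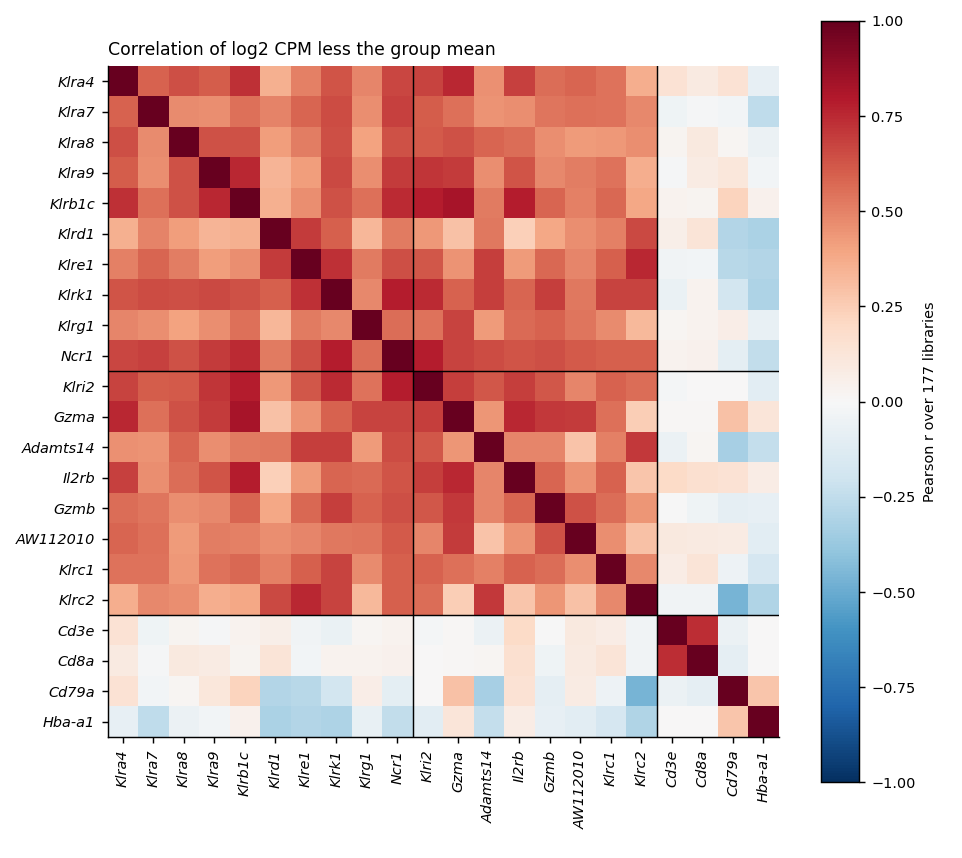
Pearson's r between genes over 177 libraries (all but the Day 24 library of non-responder 29), on log2 CPM less the mean of day and response group; black lines part the 10 receptor genes, the 8 most alike genes, and markers of T cells (Cd3e, Cd8a), B cells (Cd79a) and red cells (Hba-a1). The receptor genes form a block of positive r, with Klrk1 and Ncr1 at 0.78, whereas Cd3e and Cd8a are near 0 with all of them.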

How the data were processed

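Whole blood RNA of 45 mice was sequenced, giving 178 libraries. The submitters' processing notes name STAR and the build mm10, and the counting tool and annotation are not given in the sources used here. The authors deposited estimated counts per gene, which were rounded to whole numbers, and TPM values, scaled with haemoglobin genes included. Of the members' counts 94.3% were exactly whole as deposited (no tolerance).

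Counts were tested in R 4.3.3 with edgeR 4.0.16 (glmQLFit and glmQLFTest after filterByExpr and TMM scaling), adjusting p by Benjamini-Hochberg over every gene tested. The response groups were compared within days (adjusted p no higher than 0.05, fold change 1.5 or more), and changes from Day 4 within groups and their interaction with response at the same adjusted p. The 3 changes of a group share its Day 4 libraries. Log2 CPM used a prior count of 2, and 95% intervals are the fold change plus and minus 1.96 SE. No p-value was computed over the 10 genes together. The scripts were tested on simulated counts.

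Alternatives were DESeq2 1.42.0, a filter of 1 count in any library, haemoglobin genes removed before scaling, Wilcoxon tests on TPM, the ear tag series as a covariate or alone, the Day 17 library of non-responder 24 as a responder, the Day 24 library of non-responder 29 left out, the Day 4 libraries of responders 2 and 8 left out (chosen after seeing the data), each mouse left out, other thresholds, and a replicate block for the mouse. The ear tag pairs the 4 libraries of a mouse: deviations from the group means correlated at -0.050 to 0.097 on average over genes between days, and at a median of 0.046 to 0.36 over mice for the members.

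The members, gene lists and markers were chosen with earlier results of these data known. Named were all members, up to 3 genes with the smallest p of each other list in a comparison, and the 8 genes most alike in pattern. Outside this rule, Tyrobp, Eomes and Tbx21 were named for their role after their values were seen, as were single markers given with a correlation. Sequences came from RefSeq. Columns of all libraries were used.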

Additional observations from a re-analysis of the deposited data

How the results depend on the processing

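The falls of Day 24 kept their direction, for the 8 genes called in both groups, in DESeq2, with the filter of 1 count, with haemoglobin genes removed, with the replicate block, without the Day 24 library of non-responder 29, without the Day 4 libraries of responders 2 and 8 and without each mouse. They were not run on TPM or with the ear tag series. Of 1450 values of members and other named genes under the alternatives other than leaving out a mouse, 1314 kept their direction and side of the threshold, 22 lost the call, 24 gained one and 90 changed sign, of which 8, all on TPM, had an adjusted p of at most 0.05 in either test. The cause of each was not tested. Klrg1 had the lowest median count of the members, 52 per library. With a fold change of at least 1.5 asked, the members called went from 2 to 0 on Day 9 in both groups, from 1 to 0 (responders) and 6 to 0 (non-responders) on Day 17, and from 8 to 4 on Day 24 in both. Adjusted p alone gave 1 member between responders and non-responders on Day 9 and 1 on Day 24. Wilcoxon tests on TPM gave 1 on Day 4 and 6 on Day 9. A filter of 1 count in any library gave 0 for responders on Day 9, and DESeq2 gave 4 for non-responders on Day 9. With the mouse as a replicate block the counts were 1 (responders, Day 9), 2 (responders, Day 17) and 4 (non-responders, Day 9), and no other count moved by more than 1.5 times.

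Leaving out single mice gave 0 members between responders and non-responders on each day, 0 to 2 for responders on Day 9, 1 to 3 on Day 17 and 6 to 8 on Day 24, and 2 to 4, 5 to 6 and 8 to 9 for non-responders.

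Signs changed as follows, in log2 differences of responders from non-responders unless said otherwise. On TPM: on Day 4 Klra4 -0.56, Klra7 -0.59, Klra9 -0.31, Klre1 -0.43, Klrg1 -0.26, on Day 9 Klra9 -0.62, Klre1 -0.53, Klrg1 -0.18, Klrk1 -0.70, Ncr1 -0.52, on Day 17 Klra7 -0.094, Klrk1 -0.14, Ncr1 -0.017, on Day 24 Klrb1c -0.017, Klrg1 0.052, Klrk1 0.12. In mice with 4-digit tags alone: on Day 4 Klra8 0.10, Klrb1c 0.38, Klrk1 0.096, Ncr1 0.12, on Day 9 Klra4 0.11, Klra7 0.062, Klra8 0.10, Klrb1c 0.36, Klrd1 0.051, on Day 17 Klra4 0.27, on Day 24 Klra4 0.18, Klra7 0.028, Klra8 0.0047, Klra9 0.29, Klrg1 0.16, Klrk1 0.19, Ncr1 0.25. In those with 3-digit tags alone: on Day 4 Klra8 0.038, Klra9 -0.081, Klrb1c 0.022, Klre1 -0.23, on Day 9 Klra7 0.079, Klre1 -0.22, Klrk1 -0.12, Ncr1 -0.073, on Day 17 Klra7 -0.031, Klra8 -0.021, Klrb1c -0.11, Klrd1 0.062, Klrk1 -0.17, Ncr1 -0.031, on Day 24 Klrb1c -0.24. With the tag series as a covariate: on Day 4 Klra8 0.076, Klrb1c 0.23, Klre1 -0.064, Ncr1 0.053, on Day 9 Klra7 0.065, Klrb1c 0.15, Klrd1 0.017, on Day 17 Klrd1 0.020, in the difference of changes on Day 9 Klra9 -0.025, Klrb1c -0.081, Klrg1 -0.0015, in the difference of changes on Day 17 Klra7 -0.073, Klra8 -0.010, Klra9 -0.0015, Klrb1c -0.12, Klrg1 -0.20, in the difference of changes on Day 24 Klrb1c -0.12, Ncr1 -0.071. In DESeq2: on Day 4 Klre1 -0.0045, on Day 17 Klra4 0.0012, in the non-responders on Day 24 Klrg1 0.0069, Tyrobp 0.0072. With haemoglobin genes removed: on Day 4 Klre1 -0.0015, on Day 17 Klra4 0.0024, in the non-responders on Day 24 Klrg1 0.012, Tyrobp 0.0064. With genes of at least 1 count: on Day 4 Klre1 -0.0082, in the non-responders on Day 9 AW112010 -0.0015. With the Day 17 library of non-responder 24 as a responder: in the difference of changes on Day 17 Klrg1 -0.0055, in the responders on Day 17 Klrg1 -0.016. Leaving out the Day 24 library of non-responder 29: in the non-responders on Day 24 Klrg1 0.0047. Without the Day 4 libraries of responders 2 and 8, chosen after seeing the data: on Day 4 Klra8 0.0043, Klrk1 0.035, Ncr1 0.034, in the difference of changes on Day 9 Klrb1c -0.013, Ncr1 -0.023, in the responders on Day 9 Ncr1 -0.015, in the difference of changes on Day 17 Klra7 -0.040, Klrd1 -0.0055, in the responders on Day 17 Klrk1 -0.018, in the difference of changes on Day 24 Ncr1 -0.044. With the replicate block: in the difference of changes on Day 9 Klrb1c -0.00050.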
